A study of Cucumis x hytivus and Cucumis hystrix and Cucumis sativus with 8 samples.

Results

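The newly predicted miRNAs of Cucumis leaves are the entries of the deposited miRNA table whose name begins with PC and which carry no miRNA family number. Taken as 1 row per mature sequence, and with 8 PC entries set apart by name, they numbered 279 of the 733 listed mature sequences. They are called the members here, and 446 entries with a family number served for comparison. The 8 PC entries were set apart with earlier results of these data known, and they stay in the counts over all entries. The allotetraploid, Cucumis × hytivus, was a synthetic species grown to selfed generation 10, and gave mature and young leaves. Its 2 diploid parents, C. hystrix (a wild species) and C. sativus cultivar BeijingJietou (cucumber), gave mature leaves alone. Mature means the first leaf to be fully grown and young the first from the top, and all plants were raised in the same climate chamber setting. Each of the 4 groups had 2 libraries, which no label states to be separate plants, so a p-value reflects the spread of the libraries alone, and that spread may be technical.

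A plant miRNA is cut by a Dicer-like enzyme from a folded hairpin as a short duplex whose strands each carry a 3′ overhang, and 1 strand then guides an Argonaute protein to a matching mRNA. Most plant miRNAs with known families are 21 nt long and begin with U, written T here, which fits the Argonaute that cuts mRNAs. Plants also hold a large class of 24 nt RNAs, which mostly come from repeats and transposons, often begin with A, bind other Argonautes and guide DNA methylation. A name beginning with PC marks a candidate predicted from reads and a hairpin, not a miRNA of established function, and no target or role is annotated for any member in the files.

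Sequences of some members with many reads, and of some that stood far apart between leaf stages, are given as examples. Capitals mark the seed, bases 2 to 8 from the 5′ end, the stretch that weighs most in target matching.
PC-28-5p: aAAAGTGAgcatagttcagttggc
PC-124-3p: aGTACGTAgactaaaatgaatatt
PC-108-5p: aTAGACTTgtatcgctgatggact
PC-196-3p: aTAGAGACtaaaattgaacaaact
PC-58-3p: aCTAGGTAcatgattgtttagact
PC-24-3p: tTTGGCTTagactttaaatat
PC-260-3p: tTAAGAATtgtagtatgaact
PC-88-5p: tTTGGACCacaaactctgat
The first 5 are 24 nt long and begin with A, PC-24-3p and PC-260-3p are 21 nt long and begin with T, and PC-88-5p has 20 nt. Not all abundant members fall into these classes. PC-40-3p (249 reads, 23 nt, first base G) and PC-207-5p (213 reads, 24 nt, first base C) are not shown. Both had more reads than PC-124-3p.

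A few members resembled entries of known families, and they are set beside those entries here, again with the seed in capitals.
PC-3-3p: tGCCAAAAgagacttgccctg
miR399b: tGCCAAAGgagaattgccctg
PC-103-5p: tGTCGCAGgagagatggcccg
miR3627b: tGTCGCAGgagagatggccct
PC-135-3p: tTGTGTTCtcaggttcactcct
miR398b: tTGTGTTCtcaggtcacccct
PC-84-5p: cAAAAATGacttgcctactatgc
miR169a: tAGCCAAAaatgacttgcctgc
PC-3-3p matched miR399b, a family known for its response to phosphate shortage, at 19 of 21 bases. PC-103-5p matched miR3627b at 20 of 21 bases. PC-135-3p and miR398b, a family that targets copper proteins, shared an unbroken run of 14 bases that includes the seed. PC-84-5p, slid by 4 bases against miR169a, matched it at 17 of 18 bases, so its seed is not that of miR169. Over all members, 8 matched a family entry with at most 4 mismatches over at least 18 bases, and 10 shared a seed with one, 5 of them with an entry of a conserved family.

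The 8 libraries held between 99196 and 464306 listed reads, each sequence counted at 1 locus, and the members made up between 0.112% and 0.481% of them. Over the 28 members that could be tested, Spearman's rho between the libraries of a group was 0.19 in mature allotetraploid leaves, 0.71 in young ones, 0.248 in C. hystrix and 0.0847 in C. sativus. Over all 208 tested entries the same pairs, in that order, gave 0.841, 0.952, 0.823 and 0.572, so rho was lower over the members, above all outside young leaves. The members span a narrower range of levels than all tested entries, and no entries of matched level were compared. The table holds miRNAs alone, so the leaf stage could not be checked against marker mRNAs.

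The members differed from family entries first of all in length and first base. Members of 24 nt numbered 102, a share of 36.6% with a 95% Wilson interval of 31.1% to 42.4%, against 11 of 446 family entries, or 2.47% (1.38% to 4.36%). At 21 nt there were 65 members, or 23.3% (18.7% to 28.6%), against 37.4% of family entries (33.1% to 42%). A was the first base of 106 members, or 38%, against 17.5% of family entries, and T that of 84 members, or 30.1%, against 45.5%. The intervals cover counting error alone, and no test was made, since sequences from related loci are not independent.

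Length and first base went together. Of the 102 members of 24 nt, 67 began with A, which is 65.7% of them. Of the 65 members of 21 nt, 27 began with T and 23 with C, which is 41.5% and 35.4%. Among family entries of 21 nt, 88 began with T, and only 3 family entries of 24 nt began with A.

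**Figure D1:**
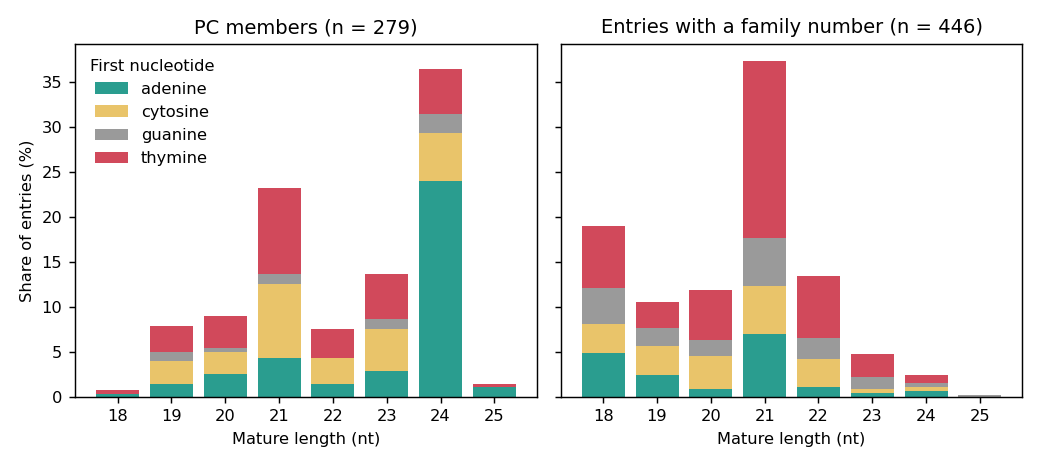
Share of entries (%) at each mature length (nt), split by first nucleotide, for the 279 members on the left and the 446 entries with a family number on the right (1 family entry whose first letter is N is not drawn). The members peak at 24 nt, with adenine in 67 of 102 there, and the family entries at 21 nt.

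The 3′ end and the base composition differed as well. T was the last base of 185 members, or 66.3%, against 140 family entries, or 31.4%. The last 3 bases were ACT in 41 members, or 14.7%, against 13 family entries, or 2.91%; PC-58-3p, PC-196-3p and PC-108-5p all end so. The median GC content of the mature sequence was 30.4% in members and 47.6% in family entries. Their hairpins were longer, with a median of 195 against 108 bases, and poorer in GC, with 28% against 40.8%. The lowest folding energy index (MFEI, a folding energy scaled to length and GC) listed for any member was 0.9, and its median was 1.3, against 0.85 for family entries. Whether a minimum of that index was set in the prediction was not found in the labels.

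The loci were spread over the genome. Chromosomes 1 to 7 held 34, 36, 50, 32, 45, 44 and 29 members, and unplaced scaffolds held 9. The 5′ arm carried 152 members and the 3′ arm 127, and 131 lay on the plus strand and 148 on the minus strand. Only 10 members were listed at more than 1 locus, each at 2, which is 3.58% against 20.4% of family entries. For PC-1-5p, PC-1-3p, PC-5-3p, PC-7-5p, PC-15-5p, PC-17-3p and PC-32-3p these loci were overlapping intervals on opposite strands. The 3 of the 10 with the most reads were PC-3-3p, PC-1-5p and PC-26-5p. PC-3-3p, the sequence like miR399b, was listed at both 27678968 to 27679122 and 27682113 to 27682219 on the plus strand of chromosome 6, as the table gives coordinates. PC-1-5p lay on both strands of 1 short scaffold, and 31 of its 45 reads were in C. sativus replicate 1. PC-26-5p lay on chromosomes 1 and 6, with 0 and 8 reads in mature allotetraploid leaves, 5.5 and 5.5 in young ones, 0 and 4.5 in C. hystrix and 0 in both C. sativus libraries. The build of these coordinates was not found in the labels, and no gene annotation was used, so no gene, intron or repeat is named for a locus.

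Many members resembled each other although they came from different hairpins. By the rule of at most 4 mismatches over at least 18 bases, in either orientation, 110 of the 279 members, or 39.4%, were like another member on a different hairpin. Among family entries the share was 72%, but pairs from the same hairpin were counted there. Family entries are also grouped by likeness to begin with, so the shares cannot be compared directly. With at most 2 mismatches, 55 members fell into 18 groups, of which 12 were pairs. Of the 43 pairings behind these groups, 14 matched in opposite orientation.

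The largest such group had 10 members on 6 chromosomes. A motif of 7 bases, TGATAGA or its complement TCTATCA, was in 6 of these 10 and in other members, and it is in capitals in the following sequences.
PC-102-3p: acTGATAGAatctaaaattttgct
PC-233-3p: TGATAGAatttagaattttgct
PC-29-3p: cagTGATAGAatctaaaaatt
PC-99-5p: aaaatttcagatTCTATCAatgat
PC-57-3p: aatgactatcggTGATAGAatt
PC-141-3p: aatTCTATCActgatagtcactga
PC-173-5p: caaTGATAGAaatcgatagact
PC-102-3p and PC-233-3p, on chromosomes 7 and 3, matched at 20 of 22 bases. PC-57-3p and PC-141-3p matched at 20 of 22 bases in opposite orientation. The motif, read in either orientation, was in 24 members, or 8.6%, from all 7 chromosomes, and in 0 of 446 family entries, which allows a share of up to 0.673%. It was singled out after all words of its length had been counted in these sequences, so the count is a description. The shorter GATAGA or TCTATC, contained in it, was in 29 members and 8 family entries.

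The next group, of 8 members on 5 chromosomes, shared a different stretch. Sequences from it and 1 further member, PC-172-5p, share a seed, shown in capitals.
PC-110-5p: cAATTAAGgatgtagcaacattt
PC-54-5p: tAATTAAGgacatagcaacattt
PC-238-5p: tAATTAAGgacatagcaat
PC-172-5p: tAATTAAGaatgtagtaacatttt
This was the seed found in most members, 4 of them. In all, 33 members shared 15 seeds with other members, and there were 261 different seeds. PC-106-3p and PC-178-3p share their seed with the listed miR172e, of a family that limits AP2-type flowering regulators. That entry begins 1 base before the listed miR172d, so the seed is not that of miR172d. PC-106-3p also matched PC-102-3p, of the motif group, at 18 of 19 bases. No family is assigned here from a shared seed alone.

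Both arms of 1 hairpin were listed as members for 24 hairpins. The strands of a Dicer-like product should each extend by 2 bases at the 3′ end, and 5 of the 24 pairs did so on both arms when paired by their bases. These 5 were PC-1, PC-3, PC-7, PC-10 and PC-12, all of 21 and 21 nt, of only 6 pairs with those lengths. Of 12 pairs with an arm of 24 nt, 0 had the overhang on both arms. The arms were paired without gaps, so only arms of equal length could show it on both. Only 4 of these 12 pairs were of 24 and 24 nt, so the lengths cannot be compared by these counts. The arms of PC-3, the locus like miR399, and of PC-12 show the geometry, with the seed in capitals.
PC-3-5p: gTGCGAGTctctattggcaga
PC-3-3p: tGCCAAAAgagacttgccctg
PC-12-5p: tTGCTTCAaacagaaacgacc
PC-12-3p: tCGTTTCTgtttgaagcaacc
PC-3-3p had 105 reads over all libraries and PC-3-5p had 5, all 5 in C. sativus replicate 1, so the 5′ arm held 4.55% of the reads of the pair. That share is uncertain, since PC-3-3p was listed at 2 loci with the same values at each, and 1 locus was counted. Whether such values are shares of the reads is not stated. PC-12 was balanced, with 11 reads on each arm.

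The 5 arm pairs with the most reads were PC-28, PC-40, PC-21, PC-3 and PC-25. PC-28, on chromosome 4 (3364251 to 3364497, plus strand), had 420 reads on its 5′ arm and 137 on its 3′ arm, both arms 24 nt long, and both were read in 8 of 8 libraries. PC-40, on chromosome 1 (13252056 to 13252471, plus strand), had 186 reads of 19 nt on its 5′ arm and 249 of 23 nt on its 3′ arm. All 19 facing bases of PC-40 pair without a mismatch. PC-21 had 65 and 56 reads on its 5′ and 3′ arms and PC-25 had 66 and 17. Across the 24 pairs, every facing base paired in 12, and 1 arm held at least 80% of the reads in only 3. In 14 cases the hairpins of members overlapped on the genome, and in 12 of these they lay on opposite strands. Some of these cases are both listed loci of 1 member sequence, as for PC-1-5p, PC-5-3p, PC-7-5p, PC-15-5p, PC-17-3p and PC-32-3p.

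Few members had many reads. The median was 15 reads over all 8 libraries, with a range of 2 to 420, against a median of 19.5 and a highest value of 958800 for family entries. At least 100 reads were reached by 13 members, or 4.66%, against 146 family entries, or 32.7%. The authors' own level label was low for 214 members, middle for 65 and high for 0. The 12 members with the highest mean CPM (counts per 1000000, relative to the scaled library size) held 32.6% of all 7878 member reads, and PC-28-5p alone 5.33%.

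PC-28-5p, of 24 nt, led with 85.1 and 275 CPM in mature allotetraploid leaves, 281 and 227 in young ones, 230.3 and 53.1 in C. hystrix, with 168.3 and 45.6 in C. sativus. Both young libraries stood above both C. sativus libraries, and every other pair of groups overlapped, since each mature group held 1 high and 1 low library. PC-24-3p, of 21 nt, from chromosome 2 (7590772 to 7591048, minus strand), had 103 and 264 CPM in mature allotetraploid leaves, 132 and 84.5 in young ones, 163 and 88.4 in C. hystrix, with 50.5 and 258 in C. sativus, and its groups overlapped too.

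PC-260-3p, of 21 nt, from chromosome 4 (8688634 to 8688896, minus strand), had 116 and 122 CPM in mature allotetraploid leaves, 218 and 233 in young ones, 188 and 118 in C. hystrix, with 53.9 and 50.6 in C. sativus. In CPM its lowest group was C. sativus, with both libraries below all others. That order depends on the scaling: per 1000000 listed reads it had 126 and 92.5 reads in mature allotetraploid leaves, 152 and 90.6 in C. hystrix, with 66.7 and 101 in C. sativus, so these groups overlapped.

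PC-40-5p showed how far 1 library can carry a member. It had 47 and 22.6 CPM in mature allotetraploid leaves, 67.2 and 62.7 in young ones, 56.7 and 0 in C. hystrix, with 347 and 10.1 in C. sativus. Replicate 1 of C. sativus held 103 of its 186 reads. The other abundant members, PC-40-3p, PC-207-5p, PC-124-3p, PC-108-5p, PC-28-3p, PC-121-3p, PC-173-5p and PC-234-3p, averaged between 48.1 and 104 CPM over the 8 libraries.

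**Figure D2:**
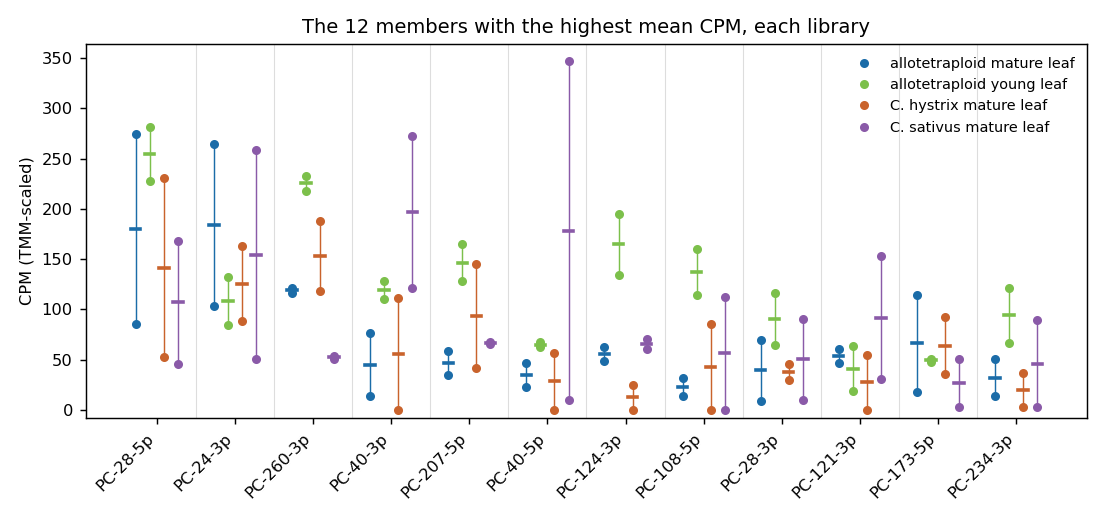
CPM of the 12 members with the highest mean, in each library (points; short bars are the means of the 2 libraries of a group, lines join them). Young leaf libraries lie close together for most members, while mature libraries of 1 group often differ several-fold, as PC-40-5p does in C. sativus with 347 and 10.1 CPM.

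How many members were seen at all differed between groups, and also between the libraries of 1 group. Reads were found for 30.5% and 39.8% of the 279 members in the libraries of mature allotetraploid leaves, for 83.5% and 73.8% in young ones, for 59.5% and 29% of them in C. hystrix and for 68.5% and 35.5% in C. sativus. In at least 1 library of a group this gave 152 members (54.5%) in mature allotetraploid leaves, 256 (91.8%) in young ones, 191 (68.5%) in C. hystrix and 208 (74.6%) in C. sativus. In both libraries it gave 44 in mature allotetraploid leaves, 183 in young ones, 56 in C. hystrix and 82 in C. sativus. Family entries varied far less, with 329 of 446 (73.8%) in mature allotetraploid leaves, 360 (80.7%) in young ones, 331 (74.2%) in C. hystrix and 337 (75.6%) in C. sativus.

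Depth differed too. Young replicate 1 was the largest library, with 464306 listed reads, while young replicate 2, with 377442, was about as deep as mature replicate 2, with 378234, where 39.8% of members were read against 73.8% in young replicate 2. Thinned to the total of the smallest library, the numbers in at least 1 library became 127 in mature allotetraploid leaves, 211 in young ones, 132 in C. hystrix and 176 in C. sativus, with young leaves still first. The members were also listed because they had reads: the highest raw value of a member was at least 5 in 248 of 279, and it fell in a young leaf library for 57% of members, against 39.2% of family entries. The part of that listing in the detection counts was not tested.

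**Figure D3:**
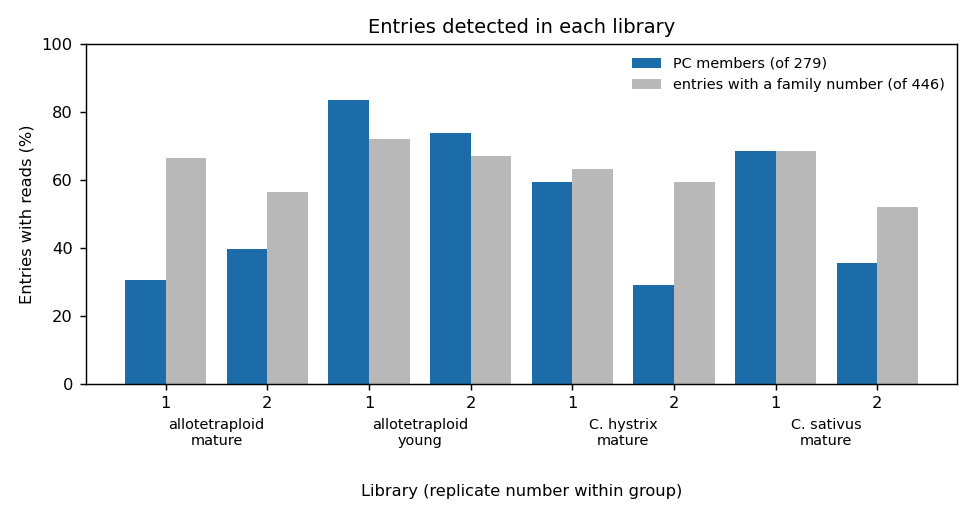
Share of entries with reads (%) in each library, for the 279 members and the 446 entries with a family number. Members range from 29% (C. hystrix replicate 2) to 83.5% (young leaf replicate 1), family entries from 52% to 72%.

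Across groups, 83 members (29.7%) had reads in all 4, against 248 family entries (55.6%). The most frequent other pattern was young leaves and both parents without mature allotetraploid leaves, with 59 members (21.1%) against 22 family entries (4.93%). Young leaves alone held 14 members (5.02%), against 38 family entries (8.52%). Among mature leaves, 87 members (31.2%) were seen in the allotetraploid and both parents, against 58.5% of family entries. The allotetraploid and C. hystrix alone held 22 (7.89%, against 3.59%), and the allotetraploid and C. sativus alone 28 (10%, against 5.61%). The allotetraploid and neither parent held 15 (5.38%, against 6.05%). A further 62 members (22.2%) were seen in both parents but not in mature allotetraploid leaves, against 5.83% of family entries. At these depths a missing member is one with few reads: 0 reads over both mature allotetraploid libraries allow up to 5.87 CPM, with 3 counts as the limit.

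Reads in both libraries of 1 group and in no other, with at least 5 in all, were found for 9 members. In young leaves PC-29-3p had 3 and 10 reads, PC-14-3p 8 and 2, PC-76-5p 8 and 2, PC-81-3p 9 and 1, PC-91-5p 4 and 6, PC-231-5p 7 and 3, PC-15-5p 1.5 and 6 and PC-252-3p 2 and 5. In C. sativus PC-30-5p had 3 and 2 reads. These reads are too few to tell an absent member from a rare one, since the limit at 0 reads in 1 library lies between 7.6 and 17.7 CPM. PC-29-3p is 1 of the motif carriers shown above.

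The members' share of listed reads was higher in young leaves and in C. sativus than in the other 2 groups. It was 0.174% and 0.29% in mature allotetraploid leaves and 0.481% and 0.382% in young ones, so the groups did not overlap. It was 0.272% and 0.112% in C. hystrix, against 0.475% and 0.412% in C. sativus, which did not overlap either. With 2 libraries against 2, an exact permutation test cannot go below p = 0.333, and no other test was made of these shares. The share is relative to the other listed reads, of which miR166 and miR159 took most: without these families in the denominator, it averaged 1.07% in mature allotetraploid leaves, 3.66% in young ones, 0.866% in C. hystrix and 1.07% in C. sativus. A smaller share cannot be told apart from more reads of those families in the same library. Members were listed for their reads, and the part of that listing in these shares was not tested either.

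The 24 nt members showed a wider gap between leaf stages than the 21 nt members. They took 674 and 961 reads per 1000000 listed reads in mature allotetraploid leaves, against 2420 and 1784 in young ones. Their level was 1116 and 419 in C. hystrix, with 2019 and 1064 in C. sativus. The 21 nt members took 527 and 739 reads per 1000000 listed reads in mature allotetraploid leaves, against 1042 and 795 in young ones, with 621 and 419 in C. hystrix, with 905 and 1185 in C. sativus. Scaled to listed reads, the leaf stages did not overlap for either length. In summed CPM the 24 nt members still did not, at 625 and 1264 in mature leaves against 2847 and 1963 in young ones, but the 21 nt members overlapped, at 488 and 972 in mature leaves against 1227 and 875 in young ones. Of the 102 members of 24 nt, 31 and 37 were read in mature allotetraploid leaves, against 93 and 87 in young ones. The gap was not particular to 24 nt, since the 38 members of 23 nt showed one too. They took 166.6 and 239.3 reads per 1000000 listed reads in mature allotetraploid leaves, against 544.9 and 499.4 in young ones. Their summed CPM was 154.5 and 314.8 in mature leaves, against 641.2 and 549.5 in young ones, without overlap. Members were listed for their reads, as given above, and the part of that listing in these sums was not tested. No family entries of the same lengths were set beside them.

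**Figure D4:**
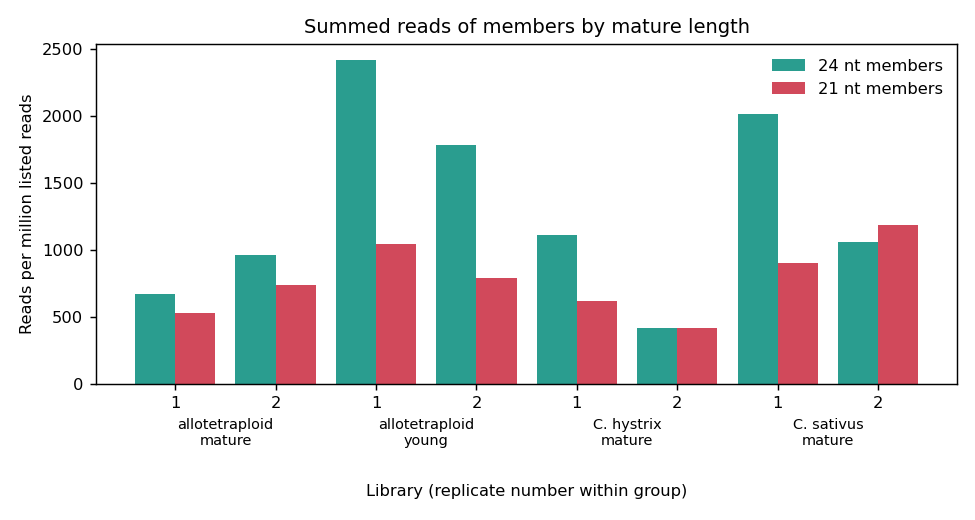
Summed reads of the 102 members of 24 nt and the 65 members of 21 nt in each library, in reads per 1000000 listed reads. The 24 nt members reach 2420 and 1784 in young leaves of the allotetraploid, and 674 and 961 in its mature leaves. The part of the listing in these sums was not tested.

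The motif carriers had 19.5 and 142 reads in mature allotetraploid leaves, 223 and 145 in young ones, 95 and 15 in C. hystrix, with 75 and 35 in C. sativus. In summed CPM this was 87.3 and 494 in mature leaves, against 564 and 421 in young ones, so the leaf stages overlapped. The group of 10 like members around PC-102-3p had 2 and 7.5 reads in mature allotetraploid leaves, against 73 and 39.5 in young ones, and the group around PC-110-5p had 16.5 and 23 in mature leaves, against 46 and 31 in young ones. The values of the likeness groups are raw reads, from mature libraries of 207032 and 378234 listed reads, against young ones of 464306 and 377442. Here too the part of the listing was not tested.

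The first comparison, mature against young leaf of the allotetraploid, asks which members differ with leaf stage. Mean CPM was lower in mature leaves for 203 members and higher for 69, beside 56.3% lower and 36.8% higher among all 733 entries. Both mature libraries stood below both young ones for 111 members, or 39.8%, where 28.2% of all entries did so, and above them for 5, where 11.9% did so. Among family entries 90 (20.2%) stood below and 82 (18.4%) above. The listing values given above bear on these counts too, and their part in them was not tested. The count of lower means was 208 when libraries were scaled to listed reads and 202 when scaled to conserved families.

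No single member passed a test. Only 28 members (10%, against 38.6% of family entries) had enough reads to be tested, and 251 did not, so these 28 stand for the abundant members alone. At an adjusted p of 0.05, edgeR's quasi-likelihood test called 0 of the 28, where it called 1.92% of all 208 tested entries. At an unadjusted p under 0.05 it also gave 0 members, where it gave 13% of all tested entries. DESeq2 and limma-voom called 0 members, where they called 8.17% and 2.88% of all tested entries, and at an unadjusted p under 0.05 they gave 0 and 1 members, where they gave 16.8% and 13.5% of all tested entries. Both mature libraries stood below both young ones for 14 of the 28 (50%), where 34.1% of all tested entries did, and 15 (53.6%) were apart in either direction, where 63.9% were. The fitted log2 fold change, mature over young, was below 0 for 22 of the 28, where 49.5% of all tested entries were below 0. Its median was -1.07 over the members and 0.03 over all tested entries. The listing values given above bear on these counts too. Young leaf reads alone could also bring a member past the read minimum for testing. The part of both in this direction was not tested. The median standard error (SE) of a member's log2 fold change, 1.61, was larger than that of all tested entries, 1.27, and the lowest adjusted p of a member by edgeR was 0.499.

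PC-58-3p, of 24 nt, from chromosome 1 (10010824 to 10011103, plus strand), had 0 and 3.48 CPM in mature leaves, against 43.1 and 32.1 in young ones. That rests on 1 read against 28, a ratio of 0.0516 with an exact counting interval of 0.00126 to 0.312, and its adjusted p in the edgeR fit was 0.499. PC-196-3p, of 24 nt, had 4.48 and 13.9 CPM in mature leaves, against 86.2 and 58.3 in young ones, a log2 fold change of -2.88 (SE 1.73). PC-108-5p, of 24 nt, from chromosome 2 (13721110 to 13721458, minus strand), had 13.4 and 31.3 CPM in mature leaves, against 114 and 160.3 in young ones, a log2 fold change of -2.58 (SE 1.72). The mature and young libraries did not overlap for any of the 3. For PC-196-3p and PC-108-5p edgeR gave adjusted p-values of 0.545 and 0.587. PC-108-5p passed the threshold, with an adjusted p of 0.038 and a log2 fold change of -2.48, in an edgeR fit to these 2 groups alone. That fit also called many more of all entries than the main fit did, as given in the closing section.

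PC-44-5p, also of 24 nt, had 13.4 and 0 CPM in mature leaves, against 43.1 and 16 in young ones, which is 3 reads against 23. PC-88-5p, of 20 nt, was the only tested member whose mature libraries both stood above the young ones, where 29.8% of all tested entries did so. It had 31.4 and 48.7 CPM in mature leaves, against 15.2 and 14.6 in young ones, a log2 fold change of 1.40 (SE 1.61) with an adjusted p of 0.798 by edgeR. It shares its seed and a run of 9 bases with a listed sequence of miR166a, and the rest of the sequence differs.

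Of the 12 abundant members, 9 had a lower mean in mature leaves and 3 a higher one. PC-207-5p had 58.2 and 34.8 CPM in mature leaves, against 164.7 and 128 in young ones. PC-124-3p had 62.7 and 48.7 CPM in mature leaves, against 195 and 134 in young ones. Neither overlapped between the stages, nor did PC-260-3p. The 3 with a higher mean were PC-24-3p (184 CPM in mature leaves against 108 in young ones), PC-121-3p (53.7 in mature leaves against 41.2 in young ones) and PC-173-5p (66.4 in mature leaves against 49.6 in young ones), all with overlapping libraries.

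**Figure D5:**
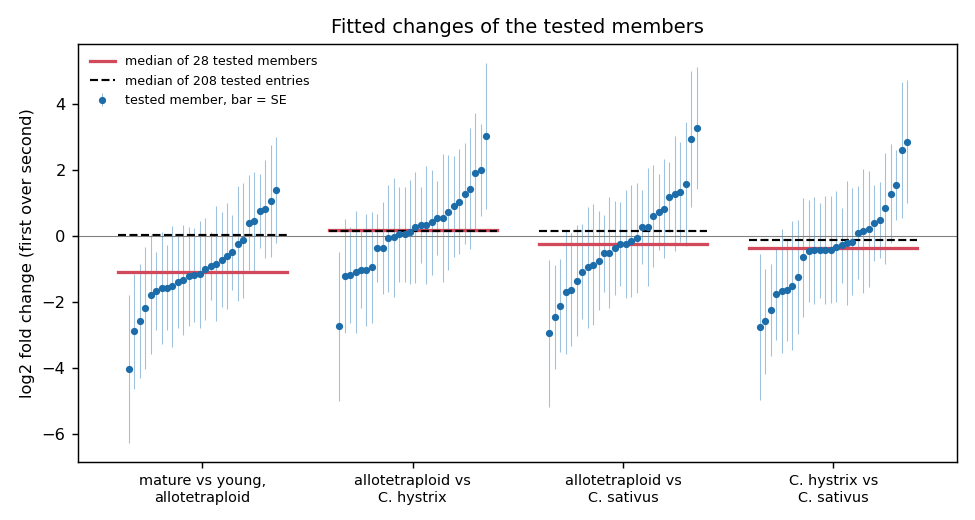
Fitted log2 fold change of each of the 28 tested members (points, bars are approximate SE) in the 4 comparisons, first-named group over second. The median of the members (red) is -1.07 for mature against young leaf, where the median of all 208 tested entries (dashed) is 0.03, and the lowest adjusted p of a member over all 4 is 0.499. The part of the listing and of the read minimum in the members' median was not tested.

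The mature allotetraploid was then set against each parent, to ask which members differ from the parental state. These 2 comparisons share the allotetraploid libraries. Against C. hystrix, mean CPM was higher in the allotetraploid for 115 members and lower for 119, beside 44.5% higher and 40.8% lower among all entries. The libraries were apart, with the allotetraploid higher, for 10 members (3.58%, beside 5.87% of all entries) and lower for 23 (8.24%, beside 7.5%). No direction can be read from the means, since without C. hystrix replicate 1 they were higher for 130 and lower for 54. The edgeR test called 0 of 28 members and 0% of all tested entries, with 0 members at an unadjusted p under 0.05. DESeq2 and limma-voom called 0 members and 0% of all tested entries, with 0 members at an unadjusted p under 0.05, where they gave 0.962% and 0.481% of all tested entries. The members' median log2 fold change was 0.20, against 0.17 for all tested entries.

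PC-124-3p, of 24 nt, from chromosome 4 (15176196 to 15176350, minus strand), had 62.7 and 48.7 CPM in the mature allotetraploid, against 24.8 and 0 in C. hystrix, a log2 fold change of 2.01 (SE 1.39). PC-3-3p, the sequence like miR399b, had 15.7 and 36.5 CPM in the mature allotetraploid, against 56.7 and 64.8 in C. hystrix, a log2 fold change of -1.18 (SE 1.45). Both had an adjusted p of 0.979 by edgeR. They were the only tested members whose libraries did not overlap here, 2 of 28 (7.14%) where 18.8% of all tested entries were apart.

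Against C. sativus, mean CPM was higher in the mature allotetraploid for 102 members and lower for 143, beside 41.7% higher and 44.6% lower among all entries. Without C. sativus replicate 1 the mean was higher for 123 and lower for 65. The libraries were apart for 15 members with the allotetraploid higher (5.38%, beside 9.82% of all entries) and for 38 with it lower (13.6%, beside 9.69%). Scaled to conserved families, the mean was higher for 75 members and lower for 170, and the libraries were apart for 12 with the allotetraploid higher and 47 with it lower. The edgeR test called 0 of 28 members and 0.481% of all tested entries, with 0 members and 6.25% of entries at an unadjusted p under 0.05. DESeq2 and limma-voom called 0 members, where they called 1.92% and 0.481% of all tested entries, with 0 and 1 members at an unadjusted p under 0.05, where they gave 12% and 8.65%. The libraries of 6 tested members (21.4%) were apart, where 29.8% of all tested entries were. The median log2 fold change of the members was -0.24, against 0.16 for all tested entries. When libraries were scaled to conserved families, these medians became -1.48 and -1.19, and with RLE (DESeq2's size factors) -0.55 and -0.22. The members' median was below 0 under each of these scalings, and the median of all tested entries changed sign.

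PC-88-5p had 31.4 and 48.7 CPM in the mature allotetraploid, against 6.73 and 0 in C. sativus, which is 21 reads against 2. That is a ratio of 10.2, with an exact counting interval of 2.49 to 89.5, and an adjusted p of 0.841 by edgeR. PC-260-3p had 116 and 122 CPM in the mature allotetraploid, against 53.9 and 50.6 in C. sativus, a log2 fold change of 1.18 (SE 1.06). Scaled to conserved families that value turned to -0.28. PC-40-3p, of 23 nt, had 13.4 and 76.5 CPM in the mature allotetraploid, against 273 and 122 in C. sativus, a log2 fold change of -2.11 (SE 1.41). The mature allotetraploid was also the lower group, without overlap, for PC-196-3p (4.48 and 13.9 CPM, against 43.8 and 15.2 in C. sativus). For PC-44-5p the values were 13.4 and 0 CPM in the mature allotetraploid, against 15.2 and 30.4 in C. sativus, and for PC-207-5p they were 58.2 and 34.8, against 67.3 and 65.8. The adjusted p-values of these members by edgeR lay between 0.841 and 0.927.

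Between the parents, C. hystrix had a higher mean than C. sativus for 106 members and a lower one for 144, beside 39% higher and 48.2% lower among all entries. Without C. sativus replicate 1 the mean was higher in C. hystrix for 144 members and lower for 70. The libraries were apart for 28 members with C. hystrix higher (10%, beside 10.6% of all entries) and for 34 with it lower (12.2%, beside 10.1%). Scaled to conserved families, the mean was higher in C. hystrix for 72 members and lower for 178, and the libraries were apart for 18 with C. hystrix higher and 49 with it lower. The edgeR test called 0 of 28 members and 0.962% of all tested entries, with 0 members and 6.73% of entries at an unadjusted p under 0.05. DESeq2 and limma-voom called 0 members, where they called 2.4% and 0.481% of all tested entries, with 1 and 0 members at an unadjusted p under 0.05, where they gave 11.5% and 9.13%. The libraries of 8 tested members (28.6%) were apart, where 31.2% of all tested entries were. The PC entries set apart by name are among all tested entries but not among the members, which bears on these shares. The median log2 fold change, C. hystrix over C. sativus, was -0.36 for the members and -0.11 for all tested entries.

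PC-124-3p had 24.8 and 0 CPM in C. hystrix, against 60.6 and 70.9 in C. sativus, a log2 fold change of -2.25 (SE 1.39). The mature allotetraploid, at 62.7 and 48.7 CPM, lay near C. sativus, with overlapping libraries. PC-260-3p had 188 and 118 CPM in C. hystrix, against 53.9 and 50.6 in C. sativus, a log2 fold change of 1.54 (SE 1.06) that became -0.15 when scaled to conserved families. PC-88-5p had 12 reads in C. hystrix against 2 in C. sativus, a ratio of 6.57 with an exact counting interval of 1.46 to 60.4. PC-40-3p had 112 and 0 CPM in C. hystrix, against 273 and 122 in C. sativus. PC-44-5p and PC-57-3p were lower in C. hystrix and PC-25-5p higher, with log2 fold changes of -1.65, -0.45 and 0.85, the last of which became -0.65 when scaled to conserved families. The adjusted p-values of these members by edgeR lay between 0.952 and 0.991.

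The members set beside known families above were read too rarely for a test, apart from PC-3-3p. PC-3-3p had 3.5 and 10.5 reads in mature allotetraploid leaves, 23 and 9.5 in young ones, 16 and 11 in C. hystrix, with 30 and 1.5 in C. sativus. The listed miR399b itself had 1 read in C. hystrix replicate 2 and 0 elsewhere, so nearly all reads of this pair of sequences stood under the PC name. PC-135-3p had 0 reads in both mature allotetraploid libraries, 6 and 4 in young leaves, 3 and 0 in C. hystrix, with 7 and 0 in C. sativus, while miR398b had 108 and 72 in mature allotetraploid leaves and 186 and 130 in young ones. PC-103-5p had 10 and 0 reads in mature allotetraploid leaves, 0 in both young libraries, 2 and 1 in C. hystrix and 0 in both of C. sativus. PC-84-5p had 0 reads in mature allotetraploid leaves, 4 and 4 in young ones, 0 in C. hystrix, with 2 and 16 in C. sativus. PC-178-3p, with the miR172e seed, had 5.5 and 6.5 reads in mature allotetraploid leaves, 25 and 6.5 in young ones, 8 and 0 in C. hystrix, with 2 and 0 in C. sativus. PC-106-3p, with the same seed, had 0 and 1.5 reads in mature allotetraploid leaves, 2 and 3 in young ones, 0 and 3 in C. hystrix, with 2 and 0 in C. sativus. PC-7-5p, which shares a seed with the other strand of miR156c, had 0 and 4.5 reads in mature allotetraploid leaves, 5 and 5 in young ones and 0 in all 4 libraries of the parents.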

How the data were processed

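Small RNA of 8 leaf libraries was read from 1 deposited table with 843 lines. TRIzol was used for total RNA, and the labels' protocols mention oligo(dT) beads and 4 libraries, though 8 are labelled. The submitters' processing notes name Bowtie 0.12.8. Not given in the sources used here are the genome build, its species and how reads were counted, so sequences of 1 parent may be undercounted. The table's raw reads, a name per the file headers, served as estimated counts, since 80.5% are whole within 1e-06. The authors' normalized reads were treated as a signal: they equal the raw reads times 1 constant per library. The hairpin GC percent and the folding values, coordinates and level labels (other columns) are used as the authors deposited them. A sequence listed at several loci was taken at 1 locus, and whether its listed reads are shares over loci is not stated. Per-sample columns without a matching sample numbered 0.

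Estimated counts were rounded and tested with edgeR 4.0.16 in R 4.3.3: filterByExpr over the 4 groups (208 of 733 entries), TMM scaling, and the robust quasi-likelihood test (two-sided) with a term for group, fitted to the 8 libraries with 4 residual degrees of freedom. The threshold was an adjusted p of 0.05, by Benjamini-Hochberg over the 208 entries. DESeq2 1.42.0, limma-voom (limma 3.58.1), other scalings and filters, leaving out each library and a block for replicate number were alternatives. The fit was tested on simulated data. Named members were the 12 with the highest mean CPM, the 4 lowest and 4 highest fold changes among tested members with non-overlapping groups, members read in 1 group only, the 5 arm pairs with most reads, members sharing a seed with conserved families, and the 3 at 2 loci with most reads. The motif, the likeness groups and the other members named beside families were singled out after their sequences were seen. The members and lists were chosen with earlier results of these data known.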

Additional observations from a re-analysis of the deposited data

How the results depend on the processing

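The call of 0 members held in 67 of 68 alternatives over the 4 comparisons, the exception being 1 member called for mature against young leaf when the 2 groups were fitted alone. The number of all entries called was less stable. For mature against young leaf it was 4, and became 7 with RLE scaling, 0 scaled to conserved families, 17 with DESeq2 and 43 with the 2 groups alone, and between 0 and 32 without 1 library (0 without either young leaf library, 32 without C. sativus replicate 1 and 24 without its replicate 2). For the mature allotetraploid against C. sativus it was 1, and became 0 scaled to conserved families, 4 with DESeq2 and 1 to 55 without 1 library, 55 without C. sativus replicate 1. For C. hystrix against C. sativus it was 2, and became 5 with DESeq2, 1 with RLE scaling, conserved-family scaling, no filter, the stricter filter of 10 reads in 2 libraries, limma-voom or the 2 groups alone, and 1 to 45 without 1 library, 45 without C. sativus replicate 1. Replicate numbers share only a number: same-numbered libraries correlated between -0.0459 and 0.328 in their deviations. With replicate number as a block, 9 entries were called for mature against young leaf and 0 members in any comparison. Scaling to conserved families moved the median log2 fold change of all tested entries by 0.23, 0.25, -1.35 and -1.36 in the 4 comparisons, and RLE scaling by -0.11, -0.07, -0.38 and -0.23. Of 310 alternatives for the 20 comparisons of named members, 306 kept direction and side of the threshold. The 3 that turned were PC-260-3p at -0.28 against C. sativus and -0.15 between the parents, and PC-25-5p at -0.65 between the parents, all scaled to conserved families. The cause of these changes was not tested.

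Detection depends on the minimum. At 10 raw reads, 14.3% of the members were found in mature allotetraploid leaves, 25.4% in young ones, 6.81% in C. hystrix and 8.24% in C. sativus. At 3 raw reads C. hystrix had 40.9% and C. sativus 47.7%. In both libraries, 15.8% were found in mature allotetraploid leaves, 20.1% in C. hystrix and 29.4% in C. sativus. Without 1 library the shares ranged from 30.5% to 39.8% in mature allotetraploid leaves, 73.8% to 83.5% in young ones, 29% to 59.5% in C. hystrix and 35.5% to 68.5% in C. sativus, the lower C. hystrix and C. sativus values being those without replicate 1. Young leaves kept the most members under each of these. The share of listed reads, with reads summed over loci, averaged 0.106% in mature allotetraploid leaves, 0.183% in young ones, 0.0768% in C. hystrix and 0.266% in C. sativus. Without miR166 and miR159 it averaged, in the same order of groups, 1.07%, 3.66%, 0.866% and 1.07%. Without 1 library it ranged from 0.174% to 0.29%, 0.382% to 0.481%, 0.112% to 0.272% and 0.412% to 0.475%, again in that order. Weighted by reads, 24 nt made up 42.8% of the members. Alternatives for the count of members with a lower mean were chosen after seeing the data. For mature against young leaf it ranged from 59.1% of the members, without young leaf replicate 1, to 83.9%, without mature replicate 2, beside 72.8%. Without 1 library it ranged from 19.4% to 54.5% for the mature allotetraploid against C. hystrix (beside 42.7%), 23.3% to 63.1% against C. sativus (beside 51.3%) and 25.1% to 60.9% for C. hystrix against C. sativus (beside 51.6%), with the lowest values without C. hystrix replicate 1, C. sativus replicate 1 and C. sativus replicate 1, in that order. Depth limits all of this: most members have a few reads per library, and 251 of 279 could not be tested.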
